A study of Mus musculus with 6 samples.

Results

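The Nrf2 and antioxidant response genes were taken as a set of 33 genes that make or recycle glutathione, reduce thioredoxin and peroxides, supply NADPH or detoxify reactive compounds, out of 20018 genes named on the array. The set was given as a list of symbols, and each gene was found through the RefSeq accession of its probes; all 33 had at least 1 probe, 45 probes in all. The rule sets no cut on a measured value, but it takes for each gene the probe with the highest mean level. The cells were red pulp macrophages, the spleen macrophages that engulf old red cells and recycle their heme iron, sorted by flow cytometry from 3 wild-type and 3 Bach2 knockout mice, with 1 one-colour Agilent array per mouse. All 6 mice were of the C57BL/6 strain and 8 to 9 weeks old; 5 were male, and wild-type replicate 3 was female. The series asks how the repressor Bach2 acts on heme and iron handling in these cells. The labels do not say in which cells or at which exons Bach2 was deleted, or which surface markers set the sort gate. Wild-type replicate 3 and knockout replicate 3 share the animal tag P6, whose meaning is not stated.

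Nrf2 (gene Nfe2l2) is a transcription factor that the adaptor Keap1 holds at a low level by sending it for degradation. Oxidants and electrophiles modify Keap1, and Nrf2 then pairs with a small Maf protein and binds antioxidant response elements near its target genes. Bach1 and Bach2 pair with the same small Maf proteins, bind closely related elements and repress, and heme releases them from DNA, which joins this response to the heme load of a macrophage.

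The element common to these factors was searched in the promoter windows of the genes, since it is the sequence through which Nrf2 and Bach2 could meet at the same gene. RefSeq windows of the GRCm38.p6 build, from 250 bases before to 50 bases after an annotated start, were held for 29 of the 33 genes; Gclc, Gsr, Prdx6 and Gsta4 had none in the table. The core TGACNNNGC, read on both strands, was in a window of 11 of the 29 genes (37.9%), against 14.0% of all 27025 genes with a window and 16.8% of the 9460 of them that were tested on the array. The exact form TGACTCAGC is 1 instance of that core and contains the AP-1 site TGACTCA. It was in a window of 3 of the 29 genes, Prdx1, Htatip2 and Me1 (10.3%), against 0.5% of all genes. The genes were listed for their tie to Nrf2, which binds such elements, so their higher shares are not an independent result. A match is a description of the letters and not evidence of binding, and several genes have windows at more than 1 start. The lines below show the 3 genes with the exact form and 3 others with the core alone, G6pdx, Gclm and Ugdh, with the matched 9 bases in capitals, on the strand on which the motif reads.
Prdx1 (chr4:116685456-116685484, minus strand, opposite to the gene, from 133 bases before the start): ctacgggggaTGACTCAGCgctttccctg
Htatip2 (chr7:49759453-49759481, plus strand, same as the gene, from 49 bases before a start): gtctgagctgTGACTCAGCacttccctag
Me1 (chr9:86695902-86695930, minus strand, same as the gene, from 6 bases before the start): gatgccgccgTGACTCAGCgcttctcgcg
G6pdx (chrX:74428919-74428947, plus strand, opposite to the gene, from 57 bases before the start): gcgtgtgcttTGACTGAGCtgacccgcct
Gclm (chr3:122245413-122245441, minus strand, opposite to the gene, from 134 bases before the start): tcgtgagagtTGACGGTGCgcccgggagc
Ugdh (chr5:65435956-65435984, minus strand, same as the gene, from 132 bases before the start): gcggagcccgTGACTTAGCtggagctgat

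Levels are given as the log2 of the background-corrected spot signal minus the 75th percentile of all probes on that array, so a level of 0 is that percentile and a step of 1 is a doubling. Levels of different probes were not ranked against each other, since probes differ in how well they bind. Differences are the mean of the knockout mice minus the mean of the wild-type mice (n = 3 and 3), with the standard error (SE) of limma's moderated fit. A gene was called when the Benjamini-Hochberg adjusted p over all 18405 tested entries (genes, or probes without a gene name) was under 0.05. The 75th percentile signal ran from 763.9 to 2664.2 over the arrays, a 3.49-fold range, and 37.5% to 51.5% of spots were well above background. All 6 arrays lay on 1 slide, wild type in its first row and knockout in its second, and these rows cannot be told apart from genotype; the 3 array columns each paired 1 wild-type with 1 knockout mouse, with both mice tagged P6 in column 3. In such sorted bulk samples, fewer cells of a type and less RNA per cell cannot be told apart. Of the 2 Bach2 probes, the brighter stood at -0.90, 0.02 and -1.35 in wild type and at -2.24, -3.72 and -1.15 in knockout, where it was well above background on 2 of 3 arrays, and for the other no array was well above background. Knockout replicate 3 lay within the wild-type range of the brighter probe; where it lies relative to the deletion is not given, so it does not check the genotype.

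Of the 33 antioxidant genes, 30 were tested and 0 were called, with 0 of the 18405 entries called in either direction (0% higher and 0% lower). The knockout mean was below wild type for 22 of the 30 genes (73.3%) and above for 8, against 60.7% of all entries below. After quantile normalization the count was 16 of 30 (53.3%, against 51.7% of all entries), and after centring arrays on their median it was 21 of 30 (70%, against 46.9%), so the split depends on the scaling. The median difference of the 30 genes was -0.22, against -0.11 for all entries. At an unadjusted p under 0.05 there was 1 gene, Gsta4, lower in knockout, where 0.554% of all entries were lower and 0.69% higher at that level. On the probes used for the fit, Gsta4 was also the 1 gene whose genotypes did not overlap, a pattern seen in 1.74% of entries lower in knockout and 1.14% higher. The adjusted p was 1 for all 30 genes, so no difference described here passed the limma test over all entries.

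**Figure D1:**
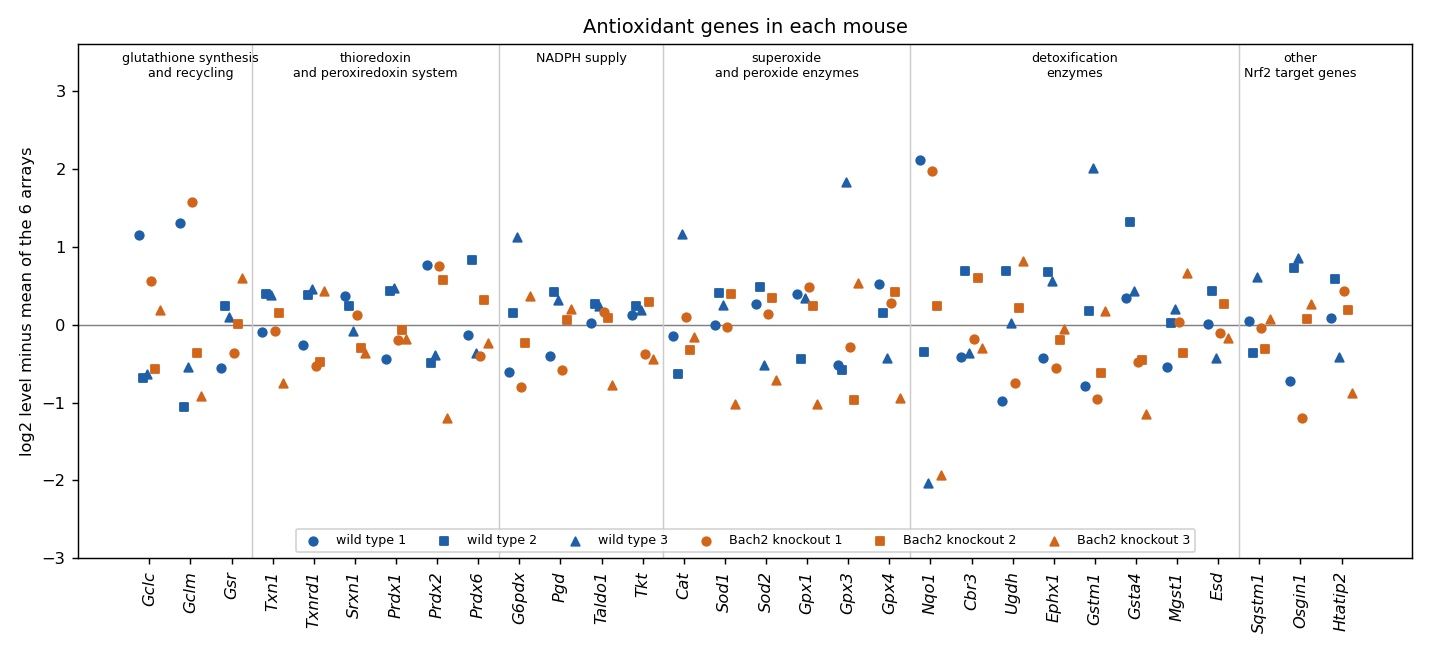
Level of each of the 30 tested antioxidant genes in each mouse, as log2 level minus the gene's mean over the 6 arrays (vertical axis), grouped by role; blue points are the 3 wild-type and orange points the 3 Bach2 knockout mice, and each shape is 1 array column. Gsta4 is the 1 gene with all orange points below all blue ones, and for Nqo1, Gclm and Prdx2 the circles of both genotypes, column 1, stand together near the top.

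Gsta4 and Gstm1 are cytosolic glutathione S-transferases, which couple glutathione to electrophiles; the alpha-class enzyme Gsta4 acts on 4-hydroxynonenal, a product of lipid peroxidation. Gsta4 stood at 0.73, 1.72 and 0.83 in the wild-type mice and at -0.09, -0.06 and -0.75 in the knockout mice. Every knockout mouse was below every wild-type mouse, and within the array columns the differences were -0.82, -1.78 and -1.58. The means were 1.09 ± 0.54 and -0.30 ± 0.39 (SD, n = 3 each), a difference of -1.39 (SE 0.48), or 2.63-fold higher in wild type, with a 95% interval of -2.50 to -0.29. By limma the unadjusted p was 0.019 and the adjusted p was 1; with array column as a block they were 0.011 and 0.999. The difference lay between -1.57 and -1.08 when each mouse was left out in turn. The unadjusted p was 0.0652 without wild-type replicate 2, 0.0563 without knockout replicate 3, 0.0755 without both mice tagged P6 and 0.0535 under median centring.

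Gstm1, a mu-class enzyme, had the second smallest p among the genes below wild type. Its level was 0.31, 1.27 and 3.11 in wild type and 0.14, 0.47 and 1.28 in knockout. The difference of -0.93 (SE 0.73, limma unadjusted p = 0.24, adjusted p = 1) was -0.16 without wild-type replicate 3, the highest mouse, and the ranges overlapped. A second tested Gstm1 probe gave -1.02. Both transferases belong to gene families with similar members, and how far their probes also bind those members was not tested. Ephx1, the microsomal epoxide hydrolase, stood at 3.91, 5.02 and 4.91 in wild type and at 3.79, 4.15 and 4.28 in knockout. Its difference was -0.54 (SE 0.48, limma unadjusted p = 0.29, adjusted p = 1); wild-type replicate 1 lay among the knockout mice, so the ranges overlapped. Its second, dimmer tested probe gave -0.42, at 2.22, 2.69 and 2.73 in wild type and 2.06, 2.17 and 2.15 in knockout, without overlap.

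The other tested detoxification enzymes had differences smaller than their SE. Mgst1, Ugdh, Cbr3 and Nqo1 had means above wild type, and the Esd mean was slightly below. Mgst1, a membrane-bound glutathione S-transferase, had the smallest p among the genes above wild type, at 3.85, 4.41 and 4.60 in wild type against 4.43, 4.02 and 5.05 in knockout. Its difference was 0.22 (SE 0.48, limma unadjusted p = 0.66, adjusted p = 1) and the ranges overlapped. Ugdh makes UDP-glucuronic acid for glucuronidation and stood at 0.89, 2.56 and 1.88 against 1.11, 2.08 and 2.67, a difference of 0.18 (SE 0.61, limma unadjusted p = 0.78, adjusted p = 1). Both genotypes had their lowest Ugdh level in array column 1. Cbr3, a carbonyl reductase, differed by 0.07 (SE 0.51), and Esd, the S-formylglutathione hydrolase, by -0.0043 (SE 0.45). Of the 8 tested enzymes of this group, 4 were below wild type and 4 above, with a median of 0.03. Aox1, an aldehyde oxidase, was well above background on 0 of the 6 arrays.

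Nqo1, the NAD(P)H quinone reductase that is a standard readout of Nrf2 activity, varied more between array columns than any other of the 30 tested genes. Its level was 1.52, -0.94 and -2.63 in wild type and 1.37, -0.36 and -2.53 in knockout, columns 1 to 3 in each case. The column means spanned 4.02 on the log2 scale, and the spot signal spanned 35.4-fold over the 6 arrays. The genotypes differed by 0.18 (SE 1.20). In this fit, which leaves out array column, the 95% interval of -2.57 to 2.92 takes in large differences in both directions. Within the columns the differences were -0.15, 0.58 and 0.10. With array column as a block the SE was 0.36 (limma unadjusted p = 0.64, adjusted p = 0.999). The Nqo1 probe was well above background on 2 of the 3 wild-type and 3 of the 3 knockout arrays.

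**Figure D2:**
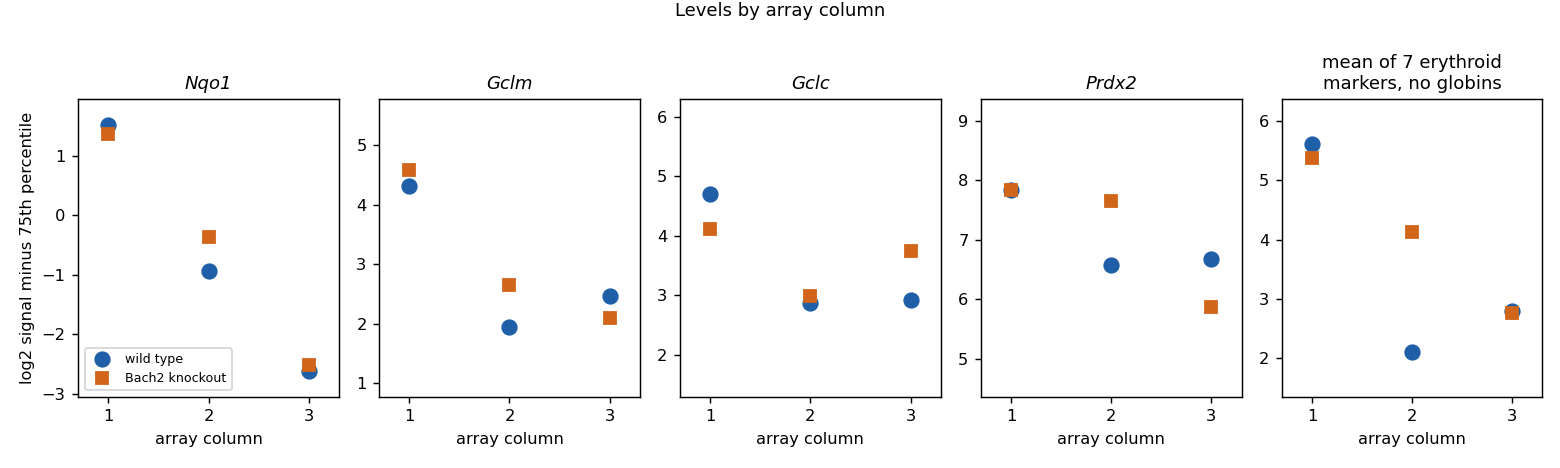
Levels by array column (horizontal axis) of Nqo1, Gclm, Gclc and Prdx2 and of the mean of 7 erythroid marker genes without the globins, on the level scale defined above and over a span of equal length; blue circles are wild type and orange squares Bach2 knockout, 1 mouse per point. In column 1 both genotypes stand high in all 5 panels, 1.52 and 1.37 for Nqo1 and 5.61 and 5.37 for the erythroid markers.

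Glutathione synthesis and recycling was the 1 group in which no tested gene was below wild type: 3 of its 4 genes were tested, with differences from 0.11 to 0.20. Gclc is the catalytic and Gclm the modifier subunit of glutamate-cysteine ligase, the rate-limiting enzyme of glutathione synthesis. Gclm stood at 4.32, 1.95 and 2.47 in wild type and at 4.59, 2.65 and 2.10 in knockout, a difference of 0.20 (SE 0.82). Gclc stood at 4.71, 2.87 and 2.92 in wild type and at 4.12, 2.99 and 3.74 in knockout, a difference of 0.11 (SE 0.62). The column 1 mouse of each genotype had the highest level of both subunits, and the rest lay lower with overlapping ranges. Gsr, glutathione reductase, which returns oxidised glutathione to its reduced form, stood at 3.24, 4.04 and 3.90 against 3.44, 3.81 and 4.40. Its difference was 0.15 (SE 0.48, limma unadjusted p = 0.76, adjusted p = 1), while a second tested Gsr probe gave -0.20, and the mean over its probes gave -0.02. It was the 1 gene, among the 7 with several tested probes, whose probes disagreed in sign. Slc7a11, the cystine transporter subunit that brings in the cysteine for this pathway, was likewise well above background on 0 of the 6 arrays.

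Of the 6 thioredoxin and peroxiredoxin genes, 5 were below wild type, with a median of -0.33 for the group; Prdx1 turned to 0.02 under quantile normalization. Txn1, thioredoxin itself, differed by -0.45 (SE 0.46), and Txnrd1, the reductase that recharges it with NADPH, by -0.39 (SE 0.48). Txnrd1 was below wild type in each array column, by -0.27, -0.86 and -0.03. Srxn1, sulfiredoxin, which repairs over-oxidised peroxiredoxins, stood at 2.60, 2.48 and 2.15 in wild type and 2.36, 1.93 and 1.87 in knockout. Its differences within columns were -0.24, -0.55 and -0.28, and knockout replicate 1 lay inside the wild-type range. Its overall difference of -0.35 (SE 0.43) kept its sign in all 15 alternative settings. The peroxiredoxins reduce hydrogen peroxide: Prdx1 differed by -0.30 (SE 0.45) and the 1-cysteine enzyme Prdx6 by -0.22 (SE 0.50). Prdx2, which is abundant in red cells, stood at 7.84, 6.58 and 6.68 in wild type and at 7.83, 7.65 and 5.87 in knockout, a difference of 0.08 (SE 0.65). Its 3 highest values came from both column 1 mice and knockout replicate 2.

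All 4 tested genes of NADPH supply were below wild type, from -0.45 to -0.22 with a median of -0.36, except that Taldo1 turned to 0.05 under quantile normalization. G6pdx, glucose-6-phosphate dehydrogenase, opens the pentose phosphate pathway and stood at 2.55, 3.31 and 4.29 in wild type and 2.35, 2.92 and 3.52 in knockout. Its differences within the columns were -0.20, -0.38 and -0.77, yet the columns themselves differed by up to 1.45, so the genotype ranges overlapped (difference -0.45, SE 0.58). Pgd, the next NADPH-making enzyme of that pathway, differed by -0.22 (SE 0.47), again below wild type in each column. The non-oxidative branch enzymes Taldo1 (transaldolase) and Tkt (transketolase) differed by -0.35 (SE 0.46) and -0.36 (SE 0.44). Me1, malic enzyme, whose window holds the exact motif shown above, was well above background on 0 of the 6 arrays, so its promoter sequence has no expression value beside it.

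The 6 superoxide and peroxide enzymes were all below wild type, from -0.48 to -0.15, but Sod2, Gpx1 and Gpx4 turned to 0.01, 0.28 and 0.08 under quantile normalization. Of the 1264 entries of any gene whose level averaged 6 or more, as it did for Sod1, Sod2, Gpx1 and Gpx4, 95.3% were below wild type, with a median of -0.34. Sod1 and Sod2 convert superoxide to hydrogen peroxide in the cytosol and in mitochondria, and differed by -0.44 (SE 0.50) and -0.15 (SE 0.51). Sod1 stood at 7.98, 8.39 and 8.24 in wild type and 7.96, 8.38 and 6.97 in knockout: the genotypes differed by -0.03 and -0.01 in columns 1 and 2, and by -1.27 in column 3. Cat, catalase, differed by -0.25 (SE 0.55) and stood highest in wild-type replicate 3, at 4.74. The selenium enzymes Gpx1 and Gpx4, which reduce hydrogen peroxide and lipid peroxides, differed by -0.20 (SE 0.55) and -0.16 (SE 0.54). Gpx3, the secreted glutathione peroxidase, stood at 0.03 in wild-type replicate 3 and at -1.27 or below on the 5 other arrays, and was well above background on 3 wild-type and 2 knockout arrays. Its difference of -0.48 (SE 0.74) was 0.31 without wild-type replicate 3.

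The 3 remaining Nrf2 targets all had a mean below wild type. Osgin1, an oxidative stress-induced growth inhibitor, differed by -0.57 (SE 0.62), Sqstm1, the autophagy receptor p62 that also binds Keap1, by -0.19 (SE 0.46), and Htatip2 by -0.17 (SE 0.53). Osgin1 stood at 1.09, 2.55 and 2.68 in wild type and at 0.63, 1.90 and 2.08 in knockout. Its differences within the columns were -0.46, -0.65 and -0.60, and both genotypes were lowest in column 1, so the ranges overlapped. The Osgin1 difference was -1.08 without wild-type replicate 1 and -0.12 without knockout replicate 1.

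**Figure D3:**
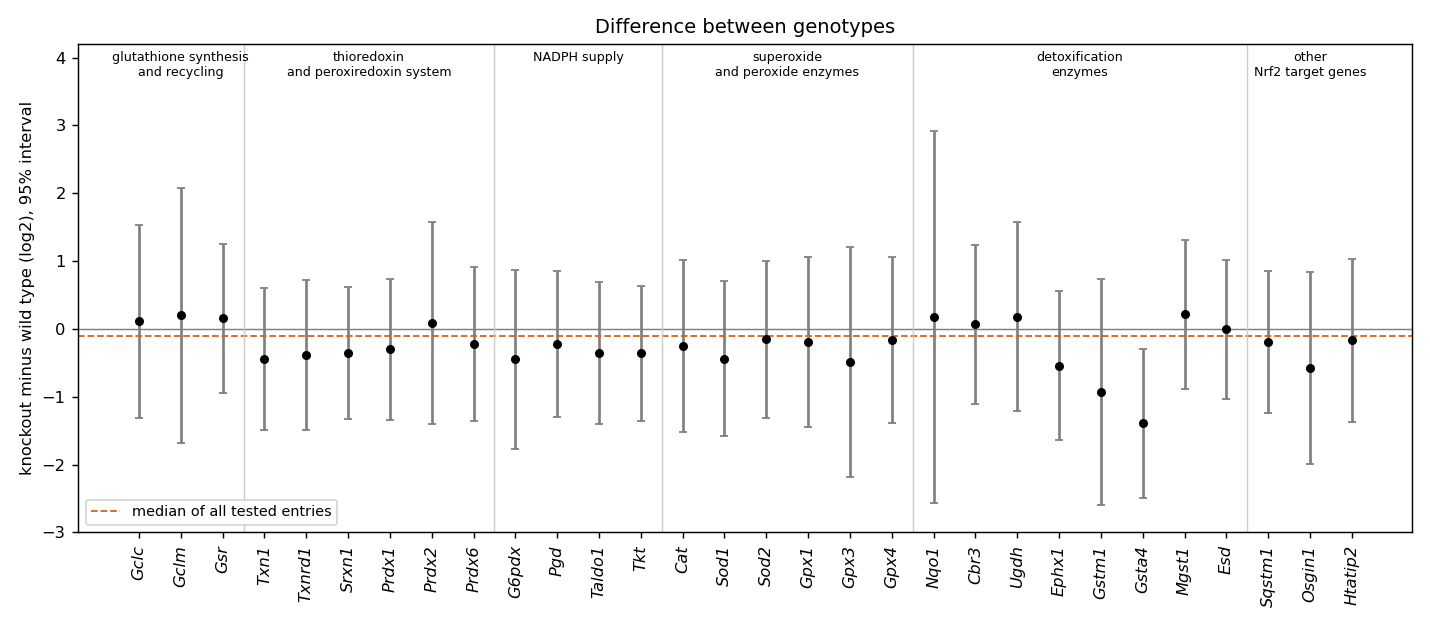
Difference between the knockout and wild-type means (log2, vertical axis) for the 30 tested antioxidant genes by role, with 95% intervals from the limma fit (n = 3 and 3); the dashed line is the median of all tested entries, -0.11. The interval of Gsta4, -2.50 to -0.29, is the 1 interval that lies wholly below 0, and the other 29 include 0; signs of Sod2, Gpx1, Gpx4, Prdx1, Taldo1 and Esd turn under quantile normalization.

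These genes differed more between array columns than between genotypes, as most entries did. For 29 of the 30 genes the 3 column means spanned more than the difference between genotypes, a pattern seen in 90.8% of all entries, and the median column span was 0.85 against a median genotype difference of 0.22 in size. When mice were compared within their columns, 10 of the 30 genes (33.3%) were below wild type in all 3 columns, against 15.1% of all entries, and 0 were above in all 3, against 7.03%. The 10 were Gsta4, Gstm1, Ephx1, Txnrd1, Srxn1, G6pdx, Pgd, Sod1, Sod2 and Osgin1. The same count was 8 (26.7%, against 11.8%) under quantile normalization and 4 (13.3%, against 6.6%) under median centring, with 2 genes above in all columns under each; Gsta4, G6pdx and Osgin1 were below in all columns under these 3 scalings. With column as a block, 1 gene, Gsta4, had an unadjusted limma p under 0.05, against 3.16% of all entries, and 0 were called.

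The differences were most negative in column 3, which holds both mice tagged P6, wild-type replicate 3 (female) and knockout replicate 3 (male). Their arrays also had the lowest (763.9) and the highest (2664.2) 75th percentile signal, in that order. Sex and this scaling cannot be told apart from genotype within that column, and their part was not tested. The median difference of the 30 genes was -0.10 in column 1, -0.23 in column 2 and -0.53 in column 3, and without both P6 mice it was -0.12, against -0.13 for all entries. The 9 genes whose level averaged 6 or more (Txn1, Prdx1, Prdx2, Taldo1, Sod1, Sod2, Gpx1, Gpx4 and Esd) had column medians of -0.01, -0.15 and -0.81. All 1264 entries of that level had -0.03, -0.05 and -0.87, so these 9 genes stood near other bright probes. The 21 dimmer genes had column medians of -0.15, -0.38 and -0.38, against -0.15, -0.17 and 0.10 for all dimmer entries. Signals of Txn1 on 1 array, Sod1 on 1 array and Gpx1 on 2 arrays reached 425598.4, the lowest value of the 3 brightest spike-in control probes. The spot signals of Txn1, Taldo1, Sod1 and Gpx1 ranged 1.89-fold, 1.93-fold, 2.08-fold and 2.08-fold over the arrays, less than the 3.49-fold range of the percentile that was subtracted. No spot of any array other than the control spots, which were not counted, carried the saturation mark.

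**Figure D4:**
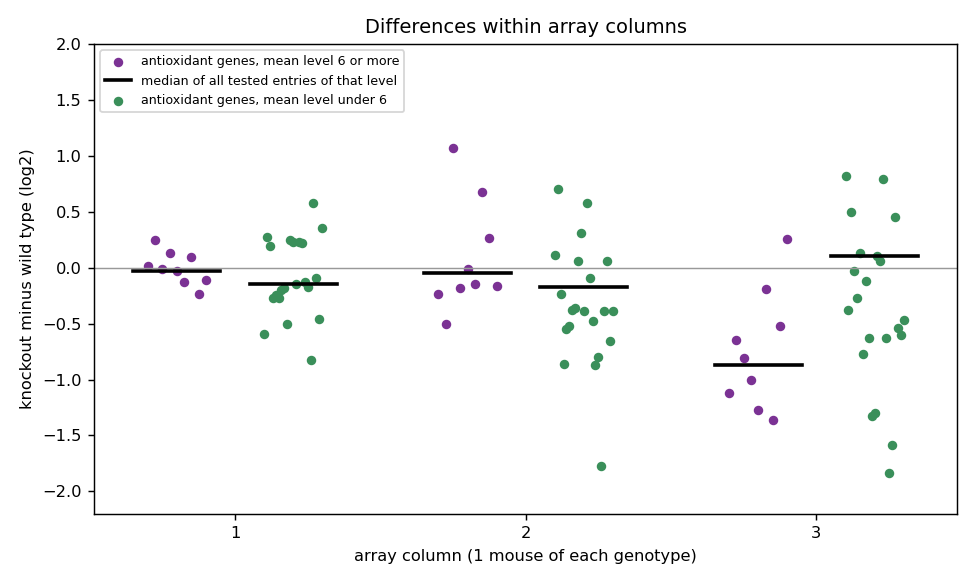
Knockout minus wild-type level (log2, vertical axis) within each array column for the tested antioxidant genes whose level averaged 6 or more (purple, 9 genes) and under 6 (green, 21 genes), 1 point per gene; black bars are the median of all tested entries of that level in that column. The purple points of column 3 sit around the bar at -0.87, and those of columns 1 and 2 around bars near 0.

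Set beside the promoter sequences, the 10 tested genes with a match to TGACNNNGC had a median of -0.26, with 7 below wild type, and the 16 tested genes with a window and no match had a median of -0.22, with 13 below. Among the exact TGACTCAGC genes printed above, Prdx1 differed by -0.30 and Htatip2 by -0.17, and neither passed the test.

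The wider pathway was read from 87 further genes in 6 lists, of which 78 were tested and 0 were called; 55 (70.5%) were below wild type and 23 above, with a median of -0.15, against 60.7% and -0.11 for all entries. Nrf2 itself (Nfe2l2) differed by 0.03 (SE 0.56), its inhibitor Keap1 by -0.15 (SE 0.44) and the repressor Bach1 by -0.09 (SE 0.66), and the genotypes overlapped for each. Hmox1, the heme oxygenase that Bach factors repress in many cells, stood at 7.10, 6.96 and 8.44 in wild type and 6.99, 6.84 and 6.94 in knockout. The difference of -0.58 (SE 0.52, limma unadjusted p = 0.30, adjusted p = 1) stands beside 1 high scaled level, wild-type replicate 3, and wild-type replicate 2 lay inside the knockout range. Within the columns Hmox1 differed by -0.11, -0.13 and -1.50, where all entries of level 6 or more had a column 3 median of -0.87. Its spot signal ranged 2.78-fold, less than the 3.49-fold range of the subtracted percentile, which was lowest in wild-type replicate 3. By list, 8 of 10 regulators and partners of Nrf2, 8 of 9 heme and iron genes, 12 of 19 further glutathione and thioredoxin genes, 18 of 23 further detoxification and export genes, 5 of 8 NADPH enzymes and 4 of 9 other oxidant defence genes were below wild type. The heme and iron genes had a median level of 7.05, where the share of all bright entries below wild type was the 95.3% given above.

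The smallest p values in these lists below wild type were those of Ephx2 and Gss. Ephx2, the soluble epoxide hydrolase, stood at -2.06, -0.87 and -0.42 in wild type and at -3.28, -3.81 and -1.68 in knockout, where its probe was well above background on 1 of 3 arrays. The difference was -1.81 (SE 0.69, limma unadjusted p = 0.028, adjusted p = 1), with knockout replicate 3 inside the wild-type range. The size and p rest on knockout replicates 1 and 2, where the Ephx2 signal was not well above background. Gss, glutathione synthetase, which follows glutamate-cysteine ligase, stood at 2.16, 2.26 and 1.74 in wild type and 1.26, 1.41 and 1.44 in knockout. The Gss ranges did not overlap (difference -0.69, SE 0.42, limma unadjusted p = 0.14, adjusted p = 1). Slc40a1, the iron exporter ferroportin, was the other gene of these lists without overlap, at -0.73 (SE 0.46), with its nearest mice at 7.62 and 7.59; it was chosen after its values were seen. The Slc40a1 spot signal ranged 2.28-fold over the arrays, less than the 3.49-fold range of the subtracted percentile. Its highest signal, 433189.5, was above the spike-in value of 425598.4 given above. The part of this scaling in the Slc40a1 ranges was not tested. Gss and Slc40a1 were 2 of 78 genes, where 1.74% of all entries were lower in knockout without overlap. In the other direction the smallest p values were those of Sesn3, a sestrin (0.89, SE 0.66, limma unadjusted p = 0.22, adjusted p = 1), and Rpia, ribose-5-phosphate isomerase (0.53, SE 0.47, limma unadjusted p = 0.29, adjusted p = 1), both with overlapping ranges.

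Markers of red pulp macrophages and of other spleen cells were read beside these values. Of 11 macrophage markers, Spic, Vcam1 and Adgre1 among them, 10 were tested and well above background on all arrays, with a mean level of 5.73 to 6.81 in wild type and 5.73 to 5.88 in knockout. All 10 were below wild type, with a median difference of -0.43, and 0 were called. Their median level was 7.20, and 95.3% of all entries of level 6 or more were below wild type, with a median of -0.34. Adgre1 and Slc40a1 had no overlap between genotypes, a pattern seen, lower in knockout, in 1.74% of all entries. Their spot signals ranged 2.71-fold and 2.28-fold, less than the 3.49-fold range of the subtracted percentile. These markers stood below wild type, as did most bright entries, and their part in the antioxidant gene values was not tested. Erythroid markers other than globins (7 of 8 tested) had mean levels of 5.61, 2.10 and 2.80 in wild type and 5.37, 4.12 and 2.76 in knockout, so column 1 was high in both genotypes, as it was for Nqo1, Gclm and Prdx2. The globins left out of that mean did not stand highest in column 1. Hbb-bt stood at 8.64, 8.68 and 9.64 in wild type and at 8.85, 9.09 and 7.57 in knockout. Hba-a1 and Hba-a2 were also highest in wild-type replicate 3 and lowest in knockout replicate 3. Spot signals of these globins ranged only 1.25-fold, 1.23-fold and 1.165-fold, against 3.49-fold for the subtracted percentile. On every array they exceeded 425598.4, the lowest value of the 3 brightest spike-in control probes. That percentile was lowest in wild-type replicate 3 and highest in knockout replicate 3, and its part in the globin order was not tested. The 10 tested NK cell markers of 10 had mean levels of 0.06 to 0.69 in wild type and 1.17 to 2.19 in knockout, with no overlap between genotypes. For T cells (11 of 12 tested) the ranges were 0.93 to 1.17 and 1.54 to 2.45, again without overlap, for neutrophils (9 of 11) 0.57 to 2.45 and 1.60 to 3.66, and for B cells (9 of 9) 0.17 to 1.87 and 0.78 to 1.38. By gene, 4 of the 10 NK and 4 of the 11 T cell markers were higher without overlap, against 1.14% of all entries. Differences ran from 0.03 (Klrk1) to 3.19 (Gzmb) for NK cells and from -0.19 (Cd4) to 1.53 (Zap70) for T cells. Among the untested markers, Cxcr2 and Cd247 were on the array, and Cd68, Hbb-bs, Ahsp and Ly6g had no probe named for them. The part of these other cells in the antioxidant gene values was not tested.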

How the data were processed

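The 33 genes and the further lists were chosen with earlier results of these data known. The authors' deposited scanner files hold background-subtracted spot intensity; the scanner program, Agilent Feature Extraction, is version 10.7.3.1 per the file headers but 9.1 in the submitters' processing notes, and the array design used build mm9 per the file headers. The authors' deposited table of normalized log2 values was not used for any result, since the 279 probes in it include 0 of the 45 antioxidant probes.

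Control spots and outlier-flagged spots were left out, spots of a probe were averaged on the log2 scale, and each array's 75th percentile was subtracted. Of 55681 probes, 26413 were named through RefSeq accessions, each with 1 gene, and 29268 were not. Probes well above background on at least 3 arrays and with a value on all 6 were tested, with 1 probe per gene, the brightest. The fit used limma 3.58.1 (lmFit and eBayes) in R 4.3.3 with Benjamini-Hochberg adjustment over 18405 entries and was checked on simulated data. Replicates are separate mice, numbered in accession order, which pairs nothing; the number of arrays limits the precision. All 33 genes were named; the 3 smallest p values in each direction are given in full, with the 2 smallest in each direction of the further lists, Nfe2l2, Keap1, Bach1, Hmox1 and Bach2; other genes are shown array by array where their column values are described. Alternatives covered scaling, background, filter, choice of probe, outlier flags, array column, both P6 mice and each mouse.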

Additional observations from a re-analysis of the deposited data

How the results depend on the processing

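Under 15 alternatives, including leaving out each of the 6 mice in turn, 0 entries, antioxidant genes or further pathway genes were called by limma; the count at an unadjusted p under 0.05 over all entries was 110 to 808, against 229 as reported. The number of the 30 antioxidant genes below wild type was 20 to 25 with 1 mouse left out. Their median of -0.22 was -0.085 under median centring and -0.042 under quantile normalization, and -0.30 to -0.17 with 1 mouse left out; median centring moved the median of all entries from -0.11 to 0.03. The median of the antioxidant genes minus that of all entries was -0.11 as reported and under median centring, -0.03 under quantile normalization and 0.01 without both P6 mice; it was -0.25 without the filter on dim probes, and with 1 mouse left out it ran from -0.26 (without wild-type replicate 2) to -0.04 (without wild-type replicate 3). The signs of 9 genes were kept in every alternative: Txn1, Txnrd1, Srxn1, Tkt, Sod1, Ephx1, Gstm1, Gsta4 and Osgin1; with 1 mouse left out their sizes still moved, the most for Sod1 (-0.74 to -0.04), Gstm1 (-1.56 to -0.16) and Osgin1 (-1.08 to -0.12). The other 21 changed sign at least once. Median centring gave Esd 0.13. Quantile normalization gave Prdx1 0.021, Taldo1 0.052, Sod2 0.012, Gpx1 0.28, Gpx4 0.077 and Esd 0.24. Normexp background correction gave Nqo1 -0.097, and the mean over probes gave Gsr -0.023. Leaving out both P6 mice gave Gclc -0.24, Gsr -0.021, Cat 0.28, Gpx1 0.39, Gpx4 0.017 and Ugdh -0.13. With 1 mouse left out, the genes that changed sign ranged as follows: Cat -0.63 to 0.26, Cbr3 -0.21 to 0.43, Esd -0.22 to 0.21, G6pdx -0.86 to 0.0033, Gclc -0.20 to 0.72, Gclm -0.54 to 0.90, Gpx1 -0.49 to 0.27, Gpx3 -0.90 to 0.31, Gpx4 -0.41 to 0.27, Gsr -0.11 to 0.38, Htatip2 -0.43 to 0.23, Mgst1 -0.060 to 0.46, Nqo1 -0.80 to 1.28, Pgd -0.48 to 0.018, Prdx2 -0.27 to 0.71, Prdx6 -0.46 to 0.14, Sod2 -0.45 to 0.16, Sqstm1 -0.43 to 0.065, Ugdh -0.26 to 0.60. The cause of these changes was not tested. Normexp was run on the median spot signals, chosen after seeing the data, because the planned mean signals are not among the columns used here; the authors' values were not run as an alternative, holding no antioxidant probe here. Without the filter on dim probes 33 genes were fitted, 22 of them below wild type. The labels give no replicate numbers; the paired fit, with array column as a block, called 0 entries, with 581 at an unadjusted p under 0.05. The 3 mice per genotype and the weak signals of Nqo1 and Gpx3, not above background on every array, limit what could be seen.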
